A study of Mus musculus with 22 samples.

Results

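The granule protein genes of neutrophil granulocytes were examined in sorted mouse long-term hematopoietic stem cells (LT-HSCs). The set held 10 genes, chosen by name: the primary (azurophil) granule genes Mpo, Elane, Prtn3 and Ctsg, and the later genes Mmp8, Ltf, Camp, Ngp, S100a8 and S100a9. Each gene had 1 probe set, so the set made up 10 of the 26688 probe sets on the array. The AHRVav1 mice lacked the aryl hydrocarbon receptor (AHR) in the hematopoietic system because a Cre recombinase driven by Vav1, which acts in blood cells from development onward, had excised floxed Ahr alleles. The AHRFX controls carried the floxed alleles without that excision, so an effect of the Cre itself cannot be told apart from an effect of the lost receptor. All animals were females of the C57BL/6J strain, fed without restriction, and each animal was hybridized to its own array. There were 5 AHRVav1 and 5 AHRFX mice at 2 months of age, and 6 AHRVav1 and 6 AHRFX mice at 18 months. Bone marrow from the leg bones was depleted of lineage-positive cells, and the CD48-negative, CD150-positive (SLAM) fraction was sorted from it. The paper's abstract further limits this fraction to LSK cells (lineage-negative, positive for cKit and Sca-1) that lack CD34. Antibodies to CD34, cKit and Sca-1 were in its sorting panel, although its methods heading names only the lineage, CD48 and CD150 markers. The RNA was amplified before hybridization. The source field of the labels calls every sample a knockout, and the genotype was therefore taken from the titles and the genotype field, which give the same 2 genotypes.

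Granule proteins are the preformed weapons of the neutrophil. They are made in waves as a granulocyte matures in the marrow, and each wave is packed into its own kind of granule: the primary granule proteins are made at the promyelocyte stage, and the specific and gelatinase granule proteins follow in myelocytes and later cells. Transcription of Mpo is known to begin in early myeloid progenitors, before any granule is visible.

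The arrays of the 2 ages differed in quality, and this touches every comparison of age. Background was set in each array at the 95th percentile of 1379 probe sets for olfactory and vomeronasal receptors, genes silent in blood cells. Young arrays had a background between 58.5 and 91.8 and old arrays between 25.2 and 31.3. The share of probe sets above it was 25.1% to 34.3% in young and 52.3% to 58.7% in old arrays. Taken over probe sets, which are no replicates, the median correlation between an array and the rest of its group was 0.695 to 0.752 in young and 0.952 to 0.977 in old arrays. Age and array quality therefore cannot be told apart. The Ahr probe set was above background in 0 of 5 arrays of either genotype at 2 months. At 18 months its signal was 18.1 to 38.1 in AHRVav1 and 23.6 to 97.2 in AHRFX (exact permutation test, two-sided, p = 0.0238, limma adjusted p = 0.793), and where its probes lie with respect to the excised part is not known. Of the 13 measured markers of LT-HSCs, 7 to 10 were above background in most arrays of a group at 2 months and 12 to 13 at 18 months. In both genotypes at 18 months, replicates 1 and 2 stood apart from replicates 3 to 6, and the labels do not say what sets these animals apart. In sorted bulk RNA, fewer cells of a type and less RNA per cell cannot be told apart.

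The upstream sequences of the genes are shown first, because the primary genes and Mmp8 were lower in the same old animals and because the study concerns a DNA-binding receptor. RefSeq promoter windows (build GRCm38.p6, 250 bases before to 50 after the start site) matched all 10 genes. The letters AGGAAGT, a core bound by ETS-family factors such as PU.1 (Spi1), were found on either strand in 9.35% of the 32851 windows and in 6 of the 10: in 4 of 4 primary genes, and in Mmp8 and S100a8. These letters were picked after the sequences had been read, so the count is a description and not evidence of a site. The 250 bases before the start are given 5′ to 3′ for the primary genes, and 61 bases around the match for Mmp8 and S100a8, with AGGAAGT or its reverse complement in capitals.
Mpo (chr11:87793534-87793783, plus strand): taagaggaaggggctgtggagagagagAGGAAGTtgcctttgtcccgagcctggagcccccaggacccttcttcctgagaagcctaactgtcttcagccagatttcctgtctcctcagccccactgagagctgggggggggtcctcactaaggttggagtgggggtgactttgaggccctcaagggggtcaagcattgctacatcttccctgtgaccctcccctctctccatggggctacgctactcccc
Elane (chr10:79886062-79886311, plus strand): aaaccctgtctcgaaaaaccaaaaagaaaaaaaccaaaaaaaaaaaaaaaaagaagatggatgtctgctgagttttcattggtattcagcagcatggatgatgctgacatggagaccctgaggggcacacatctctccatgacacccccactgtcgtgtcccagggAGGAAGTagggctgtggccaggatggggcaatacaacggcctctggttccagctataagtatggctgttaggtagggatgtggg
Prtn3 (chr10:79879417-79879666, plus strand): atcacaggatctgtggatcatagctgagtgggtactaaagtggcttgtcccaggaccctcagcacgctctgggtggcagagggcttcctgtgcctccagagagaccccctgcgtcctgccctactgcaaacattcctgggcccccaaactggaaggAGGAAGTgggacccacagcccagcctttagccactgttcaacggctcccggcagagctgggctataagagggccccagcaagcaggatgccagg
Ctsg (chr14:56102575-56102824, minus strand): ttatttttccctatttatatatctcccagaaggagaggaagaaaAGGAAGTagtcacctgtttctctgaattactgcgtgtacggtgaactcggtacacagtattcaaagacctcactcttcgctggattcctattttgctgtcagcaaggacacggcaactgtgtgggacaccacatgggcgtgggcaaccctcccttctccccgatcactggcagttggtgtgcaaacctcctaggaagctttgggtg
Mmp8 (chr9:7558181-7558241, plus strand): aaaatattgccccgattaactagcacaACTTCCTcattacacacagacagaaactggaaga
S100a8 (chr3:90668872-90668932, plus strand): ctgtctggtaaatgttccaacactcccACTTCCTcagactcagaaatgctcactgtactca
The match began 84 bases before the start of Elane, 94 before Prtn3, 206 before Ctsg and 223 before Mpo, on the strand of the gene in each. Elane and Prtn3 are neighbours in the RefSeq gene order on chromosome 10, as are S100a8 and S100a9 on chromosome 3. The AHR core letters GCGTG were in 32.4% of all windows and in 2 of the 10, Prtn3 and Ctsg. The C/EBP-type letters TTGCNNAA were in 10.8% of windows and in 4 of the 10, all later genes (Mmp8, Ltf, Ngp and S100a9). The RUNX letters TGTGGT were in 16.8% of windows and in Ctsg, Ltf and S100a9. The letters TATAAA were in 13.6% of windows and in Ctsg, Mmp8, S100a8 and S100a9. Both strands were searched for each, and none of these motifs was set against the expression values by a test.

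Mpo encodes myeloperoxidase, which makes hypochlorous acid in the phagosome. Its signal (normalized probe set intensity, linear scale) in AHRFX at 2 months was 852, 1415, 777, 682.5 and 218, and in AHRVav1 at that age 2263, 1513, 1313, 1464 and 1422. All 5 AHRVav1 animals were above the AHRFX mean, and only AHRFX replicate 2 reached into the AHRVav1 range. At 18 months Mpo ran from 2704.5 through a median of 4678 to 5467 in AHRFX, and from 1847 through 4631 to 4962 in AHRVav1. The old groups overlapped almost completely, and in both the 2 lowest animals were replicates 1 and 2. The order of the group means was AHRFX at 2 months, AHRVav1 at 2 months, AHRVav1 at 18 months and AHRFX at 18 months. As log2(signal + 16), the first 3 means were 9.44, 10.63 and 11.83 with standard deviations (SD) of 0.96, 0.30 and 0.63. The AHRVav1 minus AHRFX difference between the last pair was -0.16, less than their SDs of 0.63 and 0.45.

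Elane encodes neutrophil elastase, a serine protease of the primary granule. At 2 months its signal was 707.5, 1328.5, 164, 373 and 74.1 in AHRFX and 1247, 559, 902, 997.5 and 2050 in AHRVav1. The AHRFX animals spread from the lowest value of all 22 arrays to a level inside the AHRVav1 range. At 18 months it was 1191 to 3136 (median 2530) in AHRFX and 659 to 2848 (median 2560) in AHRVav1. The group means kept the order seen for Mpo (8.50, 10.06, 10.79 and 11.07 on the log2 scale, with SDs of 1.55, 0.67, 0.94 and 0.59), and each of the last 3 differed from its neighbour by less than the larger SD.

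Prtn3 encodes proteinase 3, a close relative of elastase. Its signal at 2 months was 526, 521, 976, 656 and 269 in AHRFX and 955, 979, 579, 161 and 1394 in AHRVav1, and the groups overlapped. At 18 months it was 1386 to 2330 (median 1612) in AHRFX and 621 to 2809 (median 2149) in AHRVav1. Ctsg encodes cathepsin G, the third serine protease of these granules. Its signal at 2 months was 447, 1203, 769, 284 and 1019 in AHRFX and 1526, 688, 114.5, 665 and 1033 in AHRVav1, again with overlap. At 18 months it was 1130 to 2685 (median 2271) in AHRFX and 561 to 2404 (median 2293) in AHRVav1. For both genes the 2 young groups had the lowest means and did not differ beyond their spread, and neither did the 2 old groups.

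**Figure D1:**
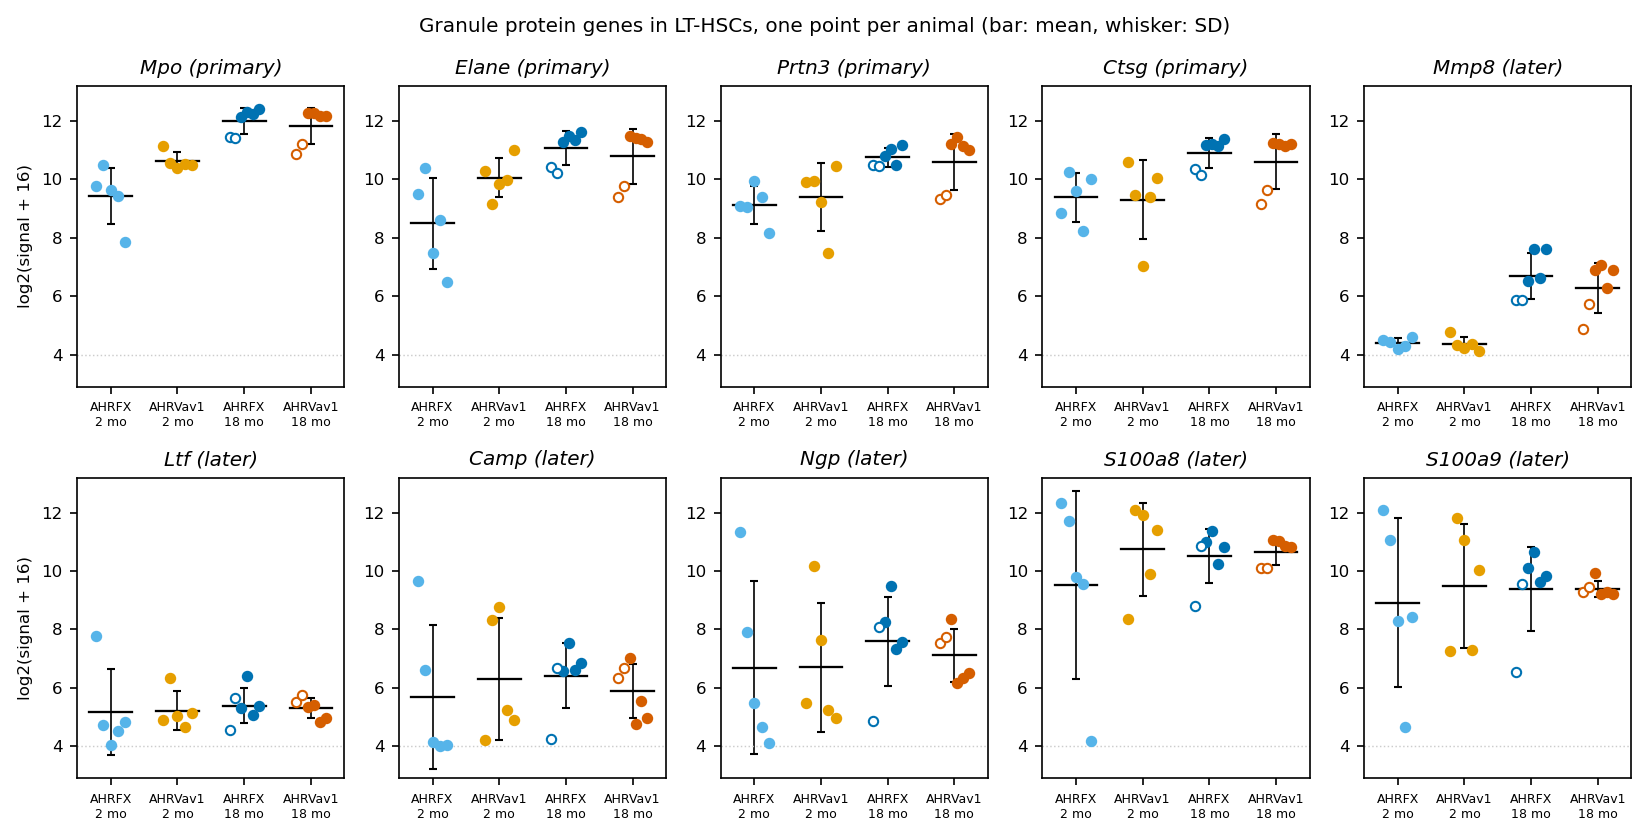
Expression of the 10 granule protein genes in each animal as log2(signal + 16), by genotype and age (2 or 18 months), with the group mean (bar) and SD (whisker). Open points mark replicates 1 and 2 at 18 months. The primary genes and Mmp8 sat higher at 18 months, and replicates 1 and 2 lay below the other old animals for these 5 genes, while Camp, Ngp, S100a8 and S100a9 spread most at 2 months.

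In AHRFX mice the primary granule genes were higher in old than in young LT-HSCs. All 4 passed the test: Mpo by 2.56 (standard error, SE, 0.37, adjusted p = 0.000302), Elane by 2.57 (SE 0.58, adjusted p = 0.00447), Prtn3 by 1.62 (SE 0.28, adjusted p = 0.000906) and Ctsg by 1.52 (SE 0.36, adjusted p = 0.00573), each as a log2 difference of 18 minus 2 months (limma, Benjamini-Hochberg over all probe sets). On the scale of signal + 16 these were 5.90-fold, 5.95-fold, 3.08-fold and 2.86-fold. Mmp8 also passed, which made 5 of the 10 genes, all higher. Of all probe sets, 44.4% passed in this comparison and 20.2% passed as higher, and the median difference over all probe sets was -0.11 against 2.09 over the primary genes and 0.81 over the later ones. The ages did not overlap for Mpo, Prtn3 and Mmp8 (3 of 10 genes, against 10.7% of all probe sets with the old group entirely higher). For Elane the young animal of replicate 2 (1328.5) exceeded the old animal of replicate 2 (1191), and for Ctsg the same pair overlapped (1203 and 1130). Without the old replicates 1 and 2 the same 5 genes passed, with larger differences (Mpo 2.84, Elane 2.94, Prtn3 1.76, Ctsg 1.84).

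In AHRVav1 mice Mpo was the 1 primary gene that passed. It rose by 1.21 (SE 0.27, adjusted p = 0.00302), while Elane differed by 0.73 (SE 0.43, adjusted p = 0.173), Prtn3 by 1.20 (SE 0.55, adjusted p = 0.0840) and Ctsg by 1.30 (SE 0.59, adjusted p = 0.0848). With Mmp8, 2 of the 10 genes passed, both higher, where 48.9% of all probe sets passed and 22.8% as higher. The median difference was 1.20 over the primary genes, 0.00 over the later ones and -0.09 over all probe sets. Only Mmp8 had old and young animals that did not overlap (1 of 10 genes, against 13.1% of all probe sets). The count moved with the old replicates 1 and 2 and with the fit: among replicates 3 to 6 alone, Elane (1.33, adjusted p = 0.00805), Prtn3 (1.80, adjusted p = 0.0206) and Ctsg (1.90, adjusted p = 0.0283) passed as well, which made 5 genes, and leaving out AHRVav1 replicate 1 at 18 months alone also gave 5. With all animals kept and all 4 groups in 1 limma fit, Prtn3 (adjusted p = 0.0344) and Ctsg (adjusted p = 0.0429) passed. Leaving out a young AHRVav1 animal added Prtn3 (without replicate 5, adjusted p = 0.04998) or Ctsg (without replicate 1, adjusted p = 0.04296). With 1 animal at a time left out, 11268 to 13577 of all probe sets passed, against 13051 with all kept. The share of all probe sets is not given here for the other fits, so their higher counts are no result about the 10 genes.

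**Figure D2:**
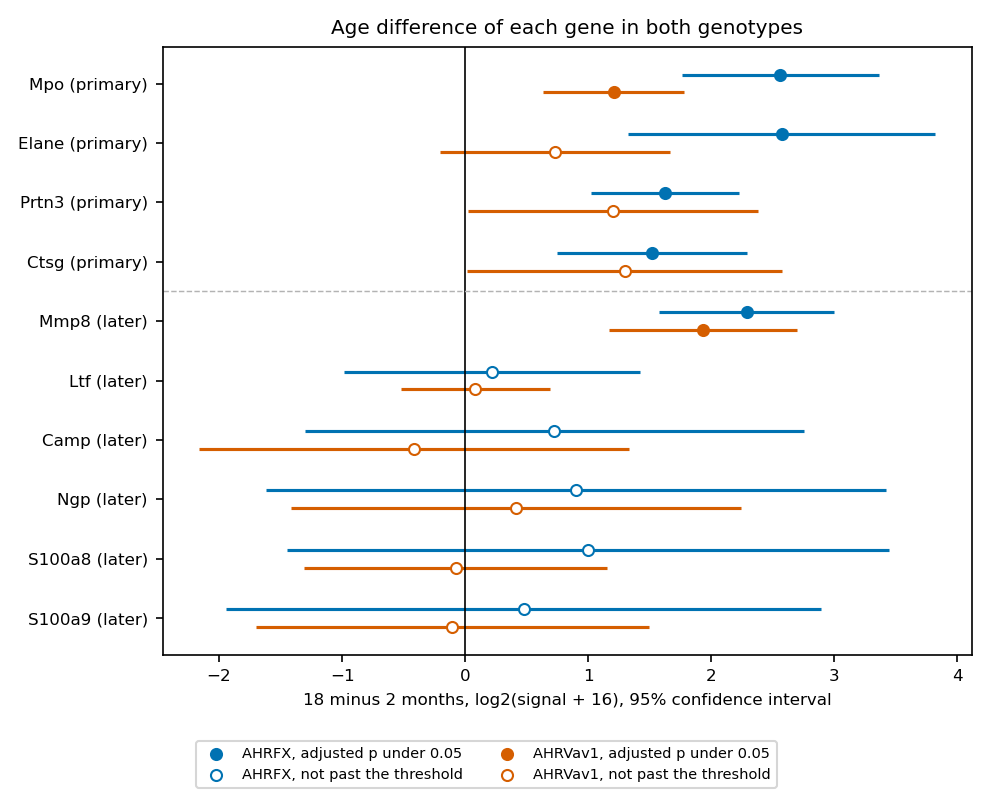
Difference between 18 and 2 months in log2(signal + 16) for each gene, with its 95% confidence interval from limma, in AHRFX and AHRVav1. Filled points passed an adjusted p of 0.05. In AHRFX the 4 primary genes and Mmp8 passed and in AHRVav1 Mpo and Mmp8, while the intervals of the other 5 later genes included 0 in both genotypes.

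The genotype comparison asks whether loss of AHR moved these genes in stem cells. No gene passed at either age. At 2 months the intervals of Mpo and Elane excluded 0. The AHRVav1 mean of Mpo was 2.28 times that of AHRFX (log2 difference 1.19, 95% interval 0.29 to 2.09, exact permutation p = 0.0159, 5 of 5 AHRVav1 animals above the AHRFX mean) and that of Elane 2.96 times (1.57, interval 0.08 to 3.05, exact permutation p = 0.0794, 5 of 5 animals). Neither passed the adjustment over all probe sets (limma adjusted p = 0.966 for each), and with 5 animals against 5 the exact test cannot go below 0.00794. For Prtn3 the difference was 0.27 (interval -0.92 to 1.47) and for Ctsg -0.09 (interval -1.49 to 1.31), so differences as large as that of Mpo were not excluded. At a limma adjusted p under 0.05, 0 of the 10 genes were called, with 0% of all probe sets called and 1237 probe sets at an unadjusted p under 0.05. With an unadjusted limma p under 0.05 and 1.5-fold or more, 2 of the 10 genes were higher in AHRVav1, against 1.45% of all probe sets, and 0 were lower, against 2.02%. Without AHRFX replicate 5 the difference of Mpo was 0.79. The median difference was 0.73 over the primary genes, 0.32 over the later genes and -0.01 over all probe sets. Some other genes of the same granules and some regulators had differences of a like size below 0, and none of them passed the adjustment either. Of 10 other primary granule and promyelocyte genes 7 had a difference below 0 (median -0.28), among them Ctsc, which activates the granule proteases (-1.44, SE 0.47), and Ms4a3, a promyelocyte membrane protein (-1.44, SE 0.95). Of 20 other later granule genes 12 were below 0 (median -0.21), with Hp, haptoglobin, at -3.49 (SE 0.78) and Lrg1, a secreted glycoprotein of neutrophils, at 1.65 (SE 0.61). Of 13 transcription factors of granulocyte development 9 were below 0 (median -0.40), with Spi1 at -1.51 (SE 0.44) and Cebpb at -1.23 (SE 0.57). In AHRVav1, Ctsc and Hp were above background in 1 of 5 young arrays each and Ms4a3 in 0 of 5. In AHRFX, Lrg1 was above it in 1 of 5. The sizes of these differences are therefore limited by signal. Spi1 was above background in 5 of 5 arrays of both genotypes, and Cebpb in 5 of 5 (AHRFX) and 4 of 5 (AHRVav1).

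At 18 months the genotypes overlapped for all 10 genes. The differences of the 4 primary genes lay below 0, from -0.15 for Prtn3 (interval -0.85 to 0.55) to -0.31 for Ctsg (interval -1.06 to 0.44), and their adjusted p-values were 0.904 to 0.954. Again 0 of the 10 genes and 0% of all probe sets passed in limma (1648 probe sets and 0 of the 10 genes at an unadjusted p under 0.05), and 0 genes were higher at an unadjusted p under 0.05 with 1.5-fold, against 0.127% of probe sets, and 0 were lower, against 0.195%. The intervals were -0.71 to 0.38 for Mpo and -1.05 to 0.50 for Elane. Within the 2 sets of old animals the values differed. Among replicates 1 and 2 the AHRVav1 animals were below both AHRFX animals for 5 of the 10 genes, the 4 primary genes and Mmp8 (Mpo -0.40, Elane -0.74, Prtn3 -1.08, Ctsg -0.86 and Mmp8 -0.57), with 24.2% of all probe sets showing that order among 2 animals of each genotype. Among replicates 3 to 6 the differences were -0.05, -0.04, 0.32, -0.03 and -0.31, and the genotypes overlapped for all 5.

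**Figure D3:**
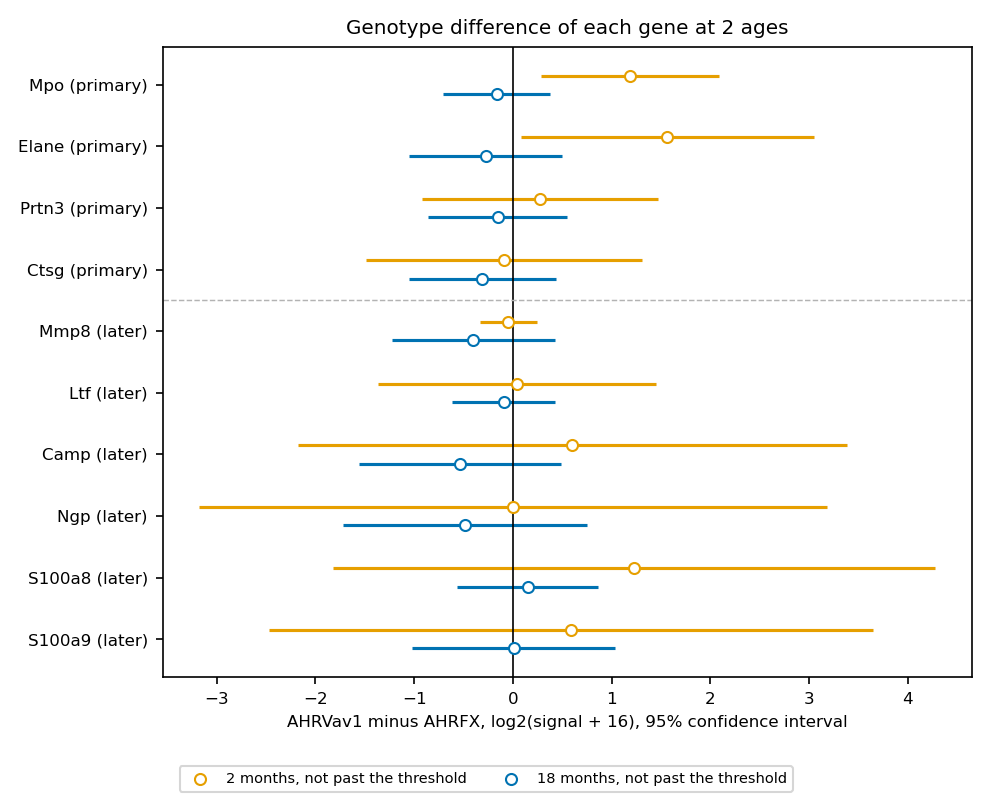
Difference between AHRVav1 and AHRFX in log2(signal + 16) for each gene, with its 95% confidence interval from limma, at 2 and at 18 months. None of the 20 values passed an adjusted p of 0.05. At 2 months the intervals of Mpo and Elane lay above 0, and at 18 months every interval included 0.

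Whether the genotype difference itself changed with age was tested with all 4 groups in 1 fit. The difference at 18 months minus that at 2 months was -1.35 for Mpo (SE 0.49, adjusted p = 0.501) and -1.84 for Elane (SE 0.77, adjusted p = 0.585), the only 2 of the 10 genes with an unadjusted p under 0.05. Of all 26688 probe sets, 2117 had an unadjusted limma p under 0.05 here. After adjustment 0 of the 10 were called, and 0.0112% of all probe sets (3 in number) were. So the larger age difference of Mpo in AHRFX (2.56) than in AHRVav1 (1.21) was not shown to differ between the genotypes, and it rests on the same young animals as the genotype difference at 2 months.

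Mmp8, the neutrophil collagenase, was the 1 later gene that passed with age. Its signal at 2 months was 6.8, 5.6, 2.2, 3.8 and 8.1 in AHRFX and 11.3, 4.2, 2.7, 4.4 and 1.4 in AHRVav1, not above background in any of the 10 young animals. At 18 months it was 42.7 to 181.5 (median 79.5) in AHRFX and 13.5 to 117 (median 82.6) in AHRVav1, above background in 6 of 6 and 5 of 6. The ages did not overlap in either genotype, and the fitted differences were 2.29 in AHRFX (adjusted p = 0.000301) and 1.93 in AHRVav1 (adjusted p = 0.00104). Since the young groups give only an upper bound, the AHRFX level at 18 months was at least 1.25-fold higher than the background of the young arrays (means of log2(signal + 16) per group, each young array at the lowest signal it had above background), and for AHRVav1 no fold can be given because that background was above the old mean.

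The 5 other later genes showed no difference of age or genotype that passed, and their young animals spread widely. S100a8 and S100a9 encode the paired subunits of calprotectin, a calcium-binding protein that fills the neutrophil cytosol. S100a8 at 2 months was 5135, 3306, 875, 736 and 1.9 in AHRFX and 310, 4348, 3886, 939 and 2712 in AHRVav1. At 18 months it was 427 to 2616 (median 1799.5) and 1076 to 2141 (median 1808), inside the range of the young animals. S100a9 followed the same course: 4364, 2125, 293, 9.4 and 331 in young AHRFX, 137, 3579, 2137, 142 and 1038 in young AHRVav1, and medians of 830 and 607 in the old groups.

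Ngp encodes neutrophilic granule protein and Camp the mouse cathelicidin, an antimicrobial peptide precursor. Ngp at 2 months was 2559, 223, 28.2, 9.1 and 1.2 in AHRFX and 28.4, 1127, 185, 21.6 and 15.2 in AHRVav1. Camp was 781, 81.8, 1.8, 0 and 0.5 in AHRFX and 2.7, 304, 422, 22.0 and 13.9 in AHRVav1. Both genes were above background in the same 4 young animals, replicates 1 and 2 of AHRFX and replicates 2 and 3 of AHRVav1, and in no other young animal. AHRFX replicate 1 was the highest of them in both genes. At 18 months Ngp was 13.3 to 697 (median 213) in AHRFX and 55.6 to 314 (median 122) in AHRVav1, and Camp 3.0 to 171 (median 83.1) and 11.2 to 113 (median 47.4). Ltf, lactoferrin, an iron-binding protein of the specific granule, stayed low: it was above background in 1 of 5 AHRFX and 0 of 5 AHRVav1 animals at 2 months and in 2 and 1 of 6 at 18 months, and its highest signal, 201, was that of AHRFX replicate 1 at 2 months.

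For these 5 genes the age differences were 0.22 to 0.999 in AHRFX (adjusted p of 0.480 to 0.763) and -0.42 to 0.41 in AHRVav1 (adjusted p of 0.681 to 0.918). The intervals were wide: that of S100a8 in AHRFX ran from -1.45 to 3.45, so a difference as large as that of Mpo was not excluded. The genotype differences at 2 months were 0.01 for Ngp to 1.23 for S100a8 (interval -1.82 to 4.28), and at 18 months -0.54 for Camp to 0.15 for S100a8. The median SD within a young group was 2.68 over the later genes against 0.90 over the primary genes in AHRFX, and 1.84 against 0.92 in AHRVav1, where that of all probe sets was 0.48. Without AHRFX replicate 1 at 2 months, Ltf (0.86, adjusted p = 0.0359) and Camp (1.71, adjusted p = 0.0493) also passed as higher with age, which made 7 of the 10 genes. Ltf was above background in only 2 of 6 old AHRFX animals, so its call is no measured rise. With 1 animal at a time left out, 9578 to 12161 of all probe sets passed in this comparison, against 11850 with all kept.

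The old animals of replicates 1 and 2 had lower levels of the primary genes than replicates 3 to 6. Mpo was 1847 to 2809 in the former and 4499 to 5467 in the latter, Elane 659 to 1355 and 2450 to 3136, Prtn3 621 to 1439 and 1441 to 2809, and Ctsg 561 to 1304 and 2241 to 2685. The sets did not overlap for these 4 genes and Mmp8 (13.5 to 42.9 and 61.7 to 181.5), 5 of the 10 genes against 2.68% of all probe sets with replicates 1 and 2 entirely lower. The mean log2 differences, replicates 3 to 6 minus 1 and 2, were 1.02 for Mpo, 1.46 for Elane, 1.11 for Prtn3, 1.38 for Ctsg and 1.35 for Mmp8. For the remaining later genes they were -0.04 for Ltf, 0.25 for Camp, 0.44 for Ngp, 0.94 for S100a8 and 1.02 for S100a9, and the sets overlapped. Cebpa, which drives entry into granulocyte development, was 1.33 higher in replicates 3 to 6, Cebpe, which drives the later granule wave, 1.20 higher and Spi1 (PU.1) 1.08 higher, while Gfi1 differed by 0.10. Markers of several other cell types moved with the same sets. The summed signal of 12 monocyte and macrophage markers was 5327 to 5334 in replicates 1 and 2 and 6779 to 10145 in replicates 3 to 6 of AHRFX, and 2599 to 3323 against 7995 to 10789 in AHRVav1. That of 9 markers of eosinophils, mast cells and basophils was 972 to 1695 against 3522 to 4502 in AHRFX, and 580.5 to 1445 against 3536 to 4139.5 in AHRVav1. The erythroid sum went the other way in AHRVav1, with 10493 to 10948 in replicates 1 and 2 against 1936 to 3341, and in AHRFX it was 4106 to 5652 against 2452 to 4210.5. The mature granulocyte sum was lower in replicates 1 and 2 of AHRFX (744 to 754 against 998 to 1278) and of AHRVav1 (457 to 539 against 899.5 to 1112). So was the T and NK cell sum (493 to 629 against 977 to 1145, and 387 to 500 against 831 to 1089). The megakaryocyte sum was higher there in AHRFX (3827 to 4836 against 2820 to 3252) and overlapped in AHRVav1. B cell and LT-HSC sums overlapped in AHRFX. The part of such cells in the difference between the sets was not tested.

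To set the 2 waves side by side, the mean log2(signal + 16) of the later genes was subtracted from that of the primary genes in each animal. The value describes animals and not the relative abundance of genes, since probe sets differ in their response. It was -0.31, 2.31, 3.19, 3.64 and 3.10 in young AHRFX and 4.66, 0.95, 1.001, 3.23 and 3.74 in young AHRVav1. The low animals were AHRFX replicate 1 and AHRVav1 replicates 2 and 3, the 3 young animals with the highest Camp. In the old groups it was 2.68 to 4.88 (mean 3.52, SD 0.79) in AHRFX and 2.42 to 4.33 (mean 3.52, SD 0.90) in AHRVav1, against 2.39 (SD 1.58) and 2.72 (SD 1.67) in the young.

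**Figure D4:**
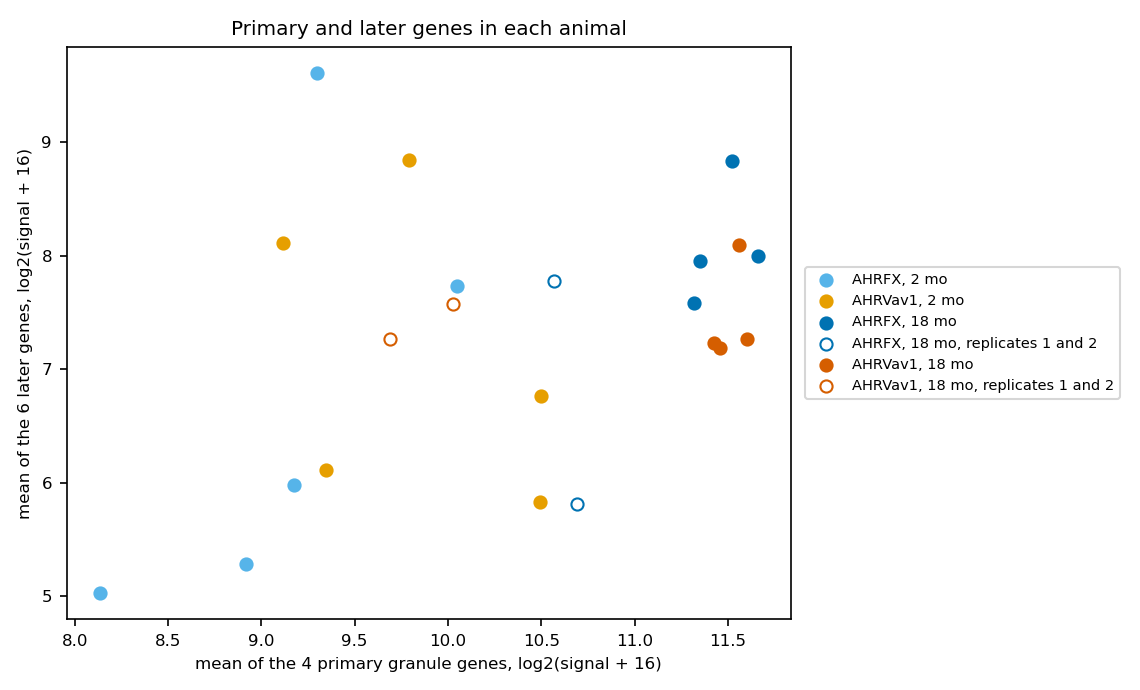
Mean log2(signal + 16) of the 4 primary genes (horizontal axis) against that of the 6 later genes (vertical axis), 1 point per animal, by genotype and age. Open points mark replicates 1 and 2 at 18 months and filled points of that age replicates 3 to 6, which lay between 11.31 and 11.66 on the horizontal axis, right of every young animal (8.13 to 10.50). The open points of AHRVav1 (9.69 and 10.03) lay inside the range of the young animals, and those of AHRFX (10.69 and 10.57) just right of it.

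Correlations across animals were taken after the group means had been removed. The 12 old animals fall into the 2 sets above, so correlations were taken over replicates 3 to 6 alone (8 animals). The median Pearson r was 0.768 over the 6 pairs of primary genes (0.688 to 0.961), 0.702 over the 15 pairs of later genes and 0.282 over the 24 pairs across. Mpo with Elane gave r = 0.961 (exact permutation p = 0.0139) and Spearman's rho = 0.886 (exact permutation p = 0.0139), and r = 0.884 without the 2 animals farthest from the median of Mpo. Ngp with S100a9 gave r = 0.980 (exact permutation p = 0.00521) and rho = 0.929 (exact permutation p = 0.00521), and r = 0.971 without 2 animals. After adjustment over the 45 pairs, 0 passed (exact permutation tests, adjusted p = 0.203 for r in both of these pairs). With these 8 animals the exact test cannot go below 0.00174, at which a single pair could not pass the adjustment. Mmp8 had r of 0.726 to 0.822 with the primary genes and of 0.230 to 0.696 (median 0.333) with the other later genes, highest with Ltf. Ltf was above background in only 2 of 6 old AHRFX and 1 of 6 old AHRVav1 animals, so its r is limited by signal.

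In the 10 young animals the median r was 0.653 over the 15 pairs of later genes and 0.171 over the 6 pairs of primary genes, with Mpo and Elane highest at 0.785. By Pearson's r, Camp with Ngp was the 1 young pair that passed, adjusted over the 90 pairs of both ages (r = 0.936, permutation p = 0.00410, adjusted p = 0.0263, and rho = 0.733, permutation p = 0.0296, adjusted p = 0.121), and r was 0.956 without the 2 animals farthest from the median of Camp. Camp and Ngp were above background in only 2 of 5 young animals of each genotype. By Spearman's rho that pair did not pass and 2 others did, Camp with S100a9 (rho = 0.867, permutation p = 0.00319, adjusted p = 0.0221, with r = 0.824, permutation adjusted p = 0.0543) and Camp with S100a8 (rho = 0.830, permutation p = 0.00604, adjusted p = 0.0363, with r = 0.689, permutation adjusted p = 0.155). Without 2 animals their r was 0.770 and 0.593. Mmp8, below background in the young animals, had r of -0.25 to 0.43 with the primary genes there.

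**Figure D5:**
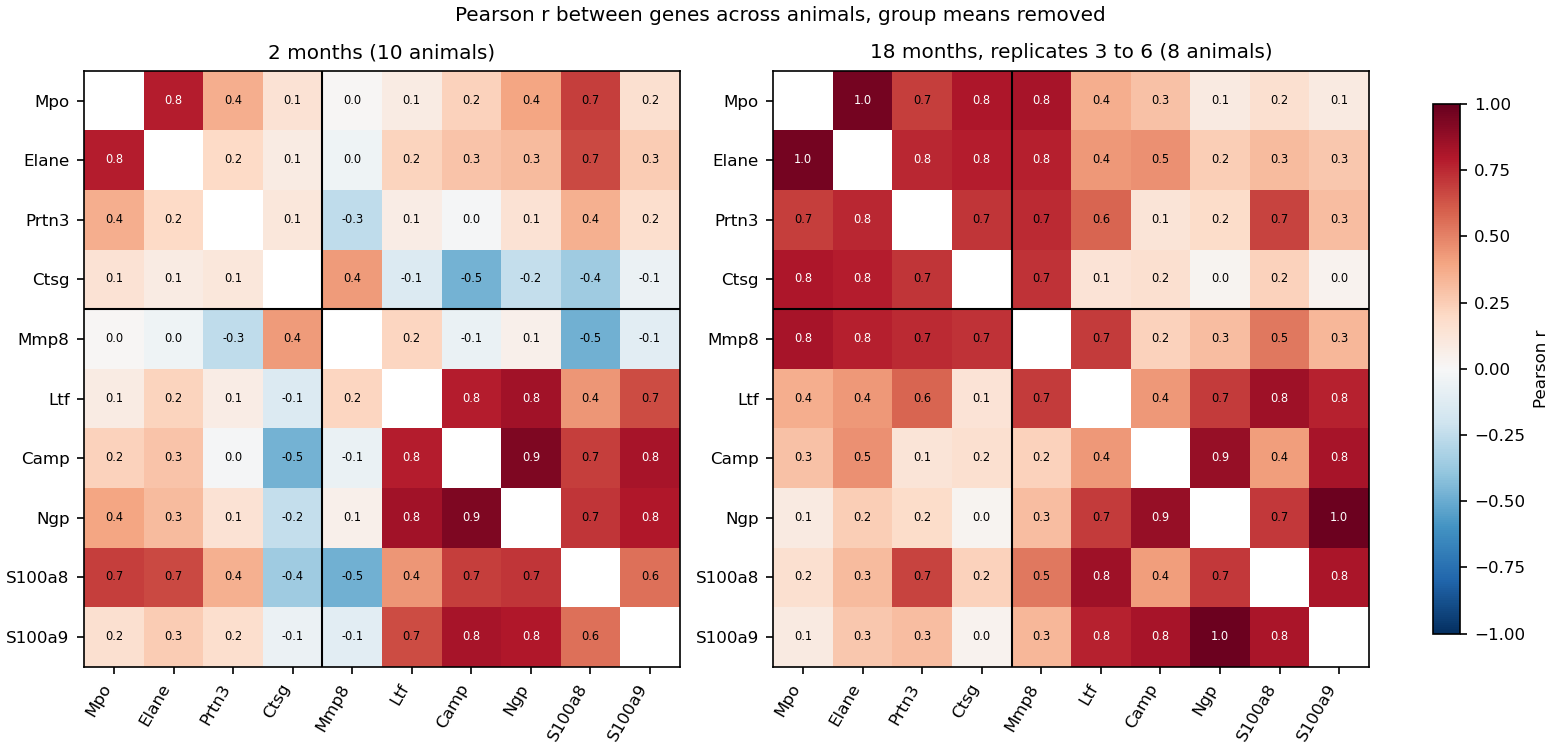
Pearson r between each pair of genes across animals after removal of the group means, at 2 months (10 animals) and at 18 months in replicates 3 to 6 (8 animals). Lines separate the 4 primary genes from the 6 later ones. At 18 months r was 0.688 to 0.961 within the primary genes and 0.726 to 0.822 between them and Mmp8. The pairs of later genes reached values as high (0.230 to 0.980, median 0.702), and 0 of the 45 pairs passed the adjustment. At 2 months the later genes other than Mmp8 show the higher values.

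Among other primary granule and promyelocyte genes, 4 of 10 were higher at 18 months in AHRFX and 5 of 10 in AHRVav1, where 1 was lower (background as above). Prss57, another serine protease of these granules, rose by 2.50 in AHRFX (adjusted p = 0.000909), as did Ctsc, the protease that activates elastase and cathepsin G (1.38, adjusted p = 0.00525). In AHRVav1, Ctsc rose by 2.65 (adjusted p = 0.00125), and Ms4a3, a promyelocyte membrane protein, was above background in 0 of 5 young and 6 of 6 old animals (fitted difference 3.71, adjusted p = 0.000218, at least 6.12-fold). Prss57 was above background in 1 of 5 young AHRFX arrays and Ctsc in 1 of 5 young AHRVav1 arrays, so the sizes of these differences are limited by signal. Lyz2, lysozyme, had a signal above background in every animal and differed by 0.25 in AHRFX (adjusted p = 0.223) and 0.15 in AHRVav1 (adjusted p = 0.562). Of 20 other later granule genes, 5 were called higher and 5 lower in AHRFX and 4 higher and 4 lower in AHRVav1. Of the genes called lower, only Olfm4, olfactomedin 4 of the specific granule, in both genotypes (-1.61 and -1.36) and Lrg1 in AHRVav1 (-1.31) were above background in most young arrays. Since the background of the young arrays was the higher one, the other 4 calls in AHRFX and 2 in AHRVav1 are no measured falls. Lcn2, lipocalin 2 of the specific granule, differed by 0.69 and 0.40 (adjusted p of 0.506 and 0.735), and its young animals showed the pattern of Camp, with 920 in AHRFX replicate 1 and 530 and 863 in AHRVav1 replicates 2 and 3 against 6.5 to 182 in the others.

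Of 13 transcription factors of granulocyte development, 8 rose with age in AHRFX and 10 in AHRVav1, and none fell in either. Cebpa was above background in 0 of 5 young and 6 of 6 old animals of each genotype, at least 1.97-fold higher in AHRFX (fitted difference 2.55, adjusted p = 0.000156) and at least 1.81-fold higher in AHRVav1 (2.73, adjusted p = 0.000286). Irf8, which favours monocytes over granulocytes, rose by 3.49 in AHRFX (adjusted p = 0.000658) and by 2.74 in AHRVav1 (adjusted p = 0.00855). Spi1 differed by -0.05 in AHRFX (adjusted p = 0.892) and rose by 1.30 in AHRVav1 (adjusted p = 0.0379). Of 12 myeloid receptors, 7 rose in AHRFX and 5 in AHRVav1, among them Csf1r, the M-CSF receptor (at least 3.08-fold, adjusted p = 2.3e-05, and at least 2.18-fold, adjusted p = 0.000284), while Csf3r, the G-CSF receptor, differed by 1.05 and 1.30 (adjusted p of 0.0784 and 0.0650). Between the genotypes 0 genes of these 4 lists passed at either age.

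Markers of other cells were read beside these values, and the counts stand against 20.2% of all probe sets called higher with age in AHRFX and 22.8% in AHRVav1 (44.4% and 48.9% in either direction). Of 13 measured markers of mature granulocytes, 4 were called higher in AHRFX and 3 in AHRVav1 (4 and 2 of them above background in most old arrays). The 3 and 4 called lower were above background in 0 of 5 young arrays of the genotype, other than Trem1 in 1 of 5 in AHRFX, so no fall was measured. Their summed signal ranged over 489 to 948 (AHRFX) and 352 to 1054 (AHRVav1) in young animals and over 744 to 1278 (AHRFX) and 457 to 1112 (AHRVav1) in old ones. Ly6g, which defines mature neutrophils, was above background in AHRFX replicate 1 at 2 months (signal 275) and in no other array, the animal with the highest Ngp, Camp, Ltf, S100a8 and S100a9. Of 12 monocyte and macrophage markers, 9 were called higher in each genotype (8 of them above background in most old arrays). In AHRFX 1 fell. The summed signal of the 12 was 1353 to 3830 (AHRFX) and 708 to 2584 (AHRVav1) in young animals. In old animals it was 5327 to 10145 (AHRFX) and 2599 to 10789 (AHRVav1). Erythroid markers rose in 6 of 7 in AHRFX and 4 of 7 in AHRVav1 (summed signal 1530 to 2994 and 1628 to 2533 young, 2452 to 5652 and 1936 to 10948 old), and megakaryocyte markers in 6 of 10 in both. Of 9 markers of eosinophils, mast cells and basophils, 4 rose in AHRFX and 5 in AHRVav1. Their summed signal in young AHRFX was 3739 in replicate 1, the animal with the high Ngp, Camp and Ly6g, and 73.1 to 533 in the other 4, and 105.5 to 936 in young AHRVav1. Of 9 B cell markers 0 and 1 were called higher, and of 10 T and NK cell markers 3 and 2, in AHRFX and AHRVav1. Above background in most old arrays were 0 of these B cell markers, and 2 and 0 of these T and NK cell markers. Markers called higher without this are no measured rises. The B, T and NK cell and mast cell markers called lower were not above background in most young arrays. Of the 13 LT-HSC markers, 2 rose and 2 fell in both genotypes. None of the measured genes of these lists was at 0 in every array of a group, and the part of such cells in the granule gene values was not tested.

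The genes whose deviations from the group mean over the 12 old animals were most like those of Mpo, among 11440 probe sets with 1 symbol and above background in at least 10 of them, were Elane, Parp8, Atp8b4, Ctsg and Tnfaip8l2, in that order. Within replicates 3 to 6 their r with Mpo was 0.961, 0.536, 0.791, 0.806 and 0.933. For Elane they were Mpo, Ctsg, Parp8, Selplg and Ly86 (r within replicates 3 to 6 of 0.961, 0.782, 0.361, 0.648 and 0.665). For Ngp they were Gpr153, S100a9, Zfp790, Mettl2 and 4930471M09Rik (0.741, 0.980, 0.696, 0.837 and 0.713), and for S100a8 Rflnb, Mcemp1, Ap3s1, Ikbke and Tyk2 (0.902, 0.901, 0.742, 0.0954 and 0.727). The ranking over 12 animals includes the difference between the 2 sets, so a gene such as Parp8 or Ikbke ranked high with a low r inside the larger set.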

How the data were processed

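Gene expression was measured on Affymetrix Mouse Gene 2.0 ST arrays, 1 per animal. The deposited values are intensities that the authors made with the IterPLIER algorithm (Affymetrix Expression Console, version not given in the sources used here), background-subtracted and quantile-normalized, from RNA amplified with the WT-Ovation PicoSL kit. Amplification can widen the spread of low signals, and normalization to a common distribution sets all values relative to the other probe sets. An offset of 16 was added and log2 taken. Differences were tested with limma 3.58.1 in R 4.3.3 (lmFit, eBayes with trend, only the 2 groups compared; all 4 groups for the change of the genotype difference with age), with Benjamini-Hochberg adjustment over 26688 probe sets and a threshold of 0.05. Fold changes are on the scale of signal + 16 and understate changes of low genes. Exact permutation tests (two-sided, numpy 2.4.6) were added for single genes. No array was left out or imputed, and no 2 arrays were identical. The number of arrays limits the precision. With 1 array per animal, the p-values rest on a spread that holds both the animals and the technical variation of amplification and array.

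Of the probe sets, 23325 carried 1 gene symbol in the platform annotation, 1798 several and 1565 none, and none was named from several. Promoters came from RefSeq (GRCm38.p6, 32851 windows, 27025 symbols). The members and gene lists were chosen with earlier results of these data known. Besides the members, the text names Ahr, up to 3 genes of smallest p per list and comparison, 8 fixed genes (Lcn2, Lyz2, Cebpa, Cebpe, Gfi1, Spi1, Csf3r, Ly6g) and the 5 most alike genes for each of Mpo, Elane, Ngp and S100a8. The lists covered other primary and later granule genes, granulocyte transcription factors, myeloid receptors, and markers of mature granulocytes, monocytes and macrophages, eosinophils with mast cells and basophils, erythroid cells, megakaryocytes, B cells, T and NK cells, and LT-HSCs. The fit was tested on simulated data. Alternatives were other offsets (1 and 64), filters, normalization, variance models, the methods' t-test, a replicate block, and arrays left out.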

Additional observations from a re-analysis of the deposited data

Results flagged for a closer look

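In each group of 5 or 6 animals, the gap between the highest or lowest animal and its nearest neighbour was set against the range of the group. Of 40 groups tested (10 genes in 4 groups), 6 had an animal farther out than Dixon's limit, where chance gives about 5%. At 2 months these were Mpo in AHRVav1 replicate 1 (signal 2263), Ltf in AHRFX replicate 1 (201) and Ltf in AHRVav1 replicate 2 (65.6), each the highest of its group. At 18 months Camp (3.0) and S100a9 (76.9) were both lowest in AHRFX replicate 1, and S100a9 was highest in AHRVav1 replicate 3 (955).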

How the results depend on the processing

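Of 1195 values of single genes under an alternative, 1114 kept direction and side of the threshold, 12 newly passed, 0 lost a call and 69 changed sign, none of them among the 154 values of genes called in the comparison. Where results changed, the cause was not tested. With an offset of 64 the 2-month genotype difference was -0.09 for Ltf and -0.17 for Ngp, the 18-month one -0.05 for S100a9 (-0.22 with array weights), the age difference in AHRFX -0.02 for Ltf, and the change of the genotype difference with age 0.03 for Ltf. Normalizing by quantiles again gave -0.06 for Ltf with age in AHRVav1. With 18-month replicates 3 to 6 only, the genotype difference was 0.32 for Prtn3 and -0.64 for S100a9, the age difference in AHRVav1 -0.09 for Ltf and 0.21 for S100a8, the change of the genotype difference with age 0.04 for Prtn3 and 0.06 for Ctsg, and 0 of 45 gene pairs passed against 16 over all 12 old animals, where the smallest p the test can give was 0.00174 against 1e-05. In AHRVav1, 5 genes then passed with age, and 4 did with all 4 groups in 1 fit, against 2, with no share of all probe sets given for either. That fit called 113 probe sets between the genotypes at 2 months, against 0, and none of the 10 genes. Among only the probe sets of above-median signal, fewer being tested, 6253 passed with age in AHRFX (11850 in all) and 6959 in AHRVav1 (13051 in all). For the change of the genotype difference with age, 3 probe sets passed, 0 with an offset of 64 or replicates 3 to 6 only, 5 among those of above-median signal or without a variance trend, and 6 with array weights. The replicate number as a block gave 7278 probe sets with age in AHRFX and 1 for the change of the genotype difference, and changed no count of called genes among the 10. The residuals of same-numbered animals correlated over 0.1 in 5 of 6 pairs at 18 months (-0.124 to 0.252) and in 0 of 5 elsewhere. Without the values of different-numbered animals, this does not decide whether the numbers pair the animals. Without S100a8 and S100a9 the primary minus later value at 18 months was 4.66 in AHRFX and 4.81 in AHRVav1. Without Mmp8, an alternative chosen after seeing the data, it stayed within 1 SD.

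Leaving out 1 animal at a time gave these ranges. Genotype at 2 months: Mpo 0.79 to 1.45, Prtn3 0.01 to 0.76, Ctsg -0.41 to 0.48, Mmp8 -0.15 to 0.02, Ltf -0.24 to 0.69, Camp -0.02 to 1.59, Ngp -0.86 to 1.17, S100a8 -0.11 to 1.93 and S100a9 -0.47 to 1.39. Genotype at 18 months: 0 to 1 probe sets called, Mpo -0.28 to 0.03, Elane -0.44 to 0.00, Prtn3 -0.32 to 0.11, Ltf -0.26 to 0.11, S100a8 -0.19 to 0.32 and S100a9 -0.56 to 0.26. Age in AHRFX: Ltf -0.07 to 0.86, Camp 0.30 to 1.71, Ngp 0.26 to 2.06, S100a8 -0.34 to 1.70 and S100a9 -0.59 to 1.27. Age in AHRVav1: 2 to 5 of the 10 genes and 11268 to 13577 of all probe sets called, Prtn3 0.72 to 1.46, Ctsg 0.73 to 1.62, Ltf -0.06 to 0.37, Camp -0.93 to 0.20, Ngp -0.02 to 1.28, S100a8 -0.67 to 0.26 and S100a9 -0.66 to 0.47. Change of the genotype difference with age: 0 to 13 probe sets called, Ctsg -0.79 to 0.10, Ltf -0.78 to 0.15, Ngp -1.65 to 0.38, S100a8 -1.78 to 0.26 and S100a9 -1.38 to 0.48. At 2 months Mmp8, and Ltf in AHRVav1, were not above background, so their differences there are limited by signal.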
